A study of Mus musculus with 16 samples.

Results

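hsa-miR-516a-5p, hsa-miR-371a-5p and hsa-miR-373-5p are human microRNAs encoded in neighbouring clusters on chromosome 19, and were followed here in culture supernatant of irradiated HCT116 cells. They were found by name on the arrays, as 3 of 1205 human miRNAs, and are given below without the prefix. They were selected on their measured signal, which was called higher at 2 Gy than at 0 Gy. HCT116 is a human colorectal carcinoma cell line, although the labels give the organism as mouse. Cultures were left unirradiated (0 Gy) or given high dose rate X-rays of 2, 6 or 10 Gy, and small RNA was taken from the medium (RPMI1640 with 10% fetal bovine serum) after 72 h. Each dose had 4 arrays, 16 in all, and each array was loaded with labelled RNA from 100 ng. The series' design text describes separate cell cultures, and this is taken to hold for the 2 Gy arrays, which that text does not list. No other agent or genetic change is named, and all 4 doses shared the line, the serum and the time.

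MicroRNAs are short RNAs cut from hairpin precursors, and each hairpin can give a product from its 5' arm (5p) and one from its 3' arm (3p). The cluster of miR-371, miR-372 and miR-373 is expressed in human embryonic stem cells and in germ cell tumours. Its products miR-372-3p and miR-373-3p share their seed with the miR-302 family and favour proliferation there. The primate-specific chromosome 19 cluster, C19MC, is an imprinted array of related hairpins transcribed mainly in placental trophoblast, which releases its miRNAs into the maternal circulation. miR-516a-5p is a C19MC product, and miR-371a-5p and miR-373-5p are the 5p products of the first and last hairpins of the other cluster. A change in supernatant can come from release, from breakdown or from the number of cells, and these cannot be told apart in such samples.

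A level is the log2 of a signal after division by the 75th percentile of its array, taken over probes that every array detected. Detection of a probe meant that more than 0.5 of its spots exceeded background clearly. Such levels allow arrays to be compared for a given miRNA, but do not rank one miRNA against another. miR-371a-5p had 4 probes, all detected on 16 of 16 arrays, the brightest with signals of 1022 to 3431 beside local backgrounds of 33.8 to 38.8. miR-516a-5p had 2 probes, with signals of 46.9 to 160.4 and of 17.2 to 145.6, the second detected on 15 arrays (not on 0 Gy replicate 1). miR-373-5p was measured by 1 probe with signals of 85.8 to 249.5, detected on 16 arrays. Its other probe, with a median signal of 9.94, was detected on 0 arrays and was not used.

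Across the series 242 to 358 human miRNAs were detected per array, no spot was saturated and 283 miRNAs were tested. Of 10 epithelial markers, 7 were detected on some arrays, 0 on all 16, and miR-192-5p, miR-194-5p and miR-215-5p on none. Their summed scaled signal ran from 1.00 to 7.92 without irradiation, and after 2, 6 and 10 Gy from 0.720 to 4.36, 0.0776 to 1.73 and 1.11 to 3.13. In the red blood cell list (summed signal 0.157 to 0.288 over all arrays) miR-486-5p was detected on 16 arrays, miR-16-5p on 4 (3 of them at 0 Gy), and miR-451a and miR-144-3p on none. On no array were 4 of 5 white blood cell and platelet markers detected (0.276 to 0.371), and miR-155-5p was detected on 16. The liver miRNA miR-122-5p was detected on 4 arrays (0.0261 to 0.0729), and 3 of 4 muscle markers on 13 to 16 arrays (summed signal 0.296 to 0.452). The part of these lists in the results below was not tested. The 0 and 2 Gy arrays lay on 1 slide and the 6 and 10 Gy arrays on another, so that slide and dose cannot be told apart where either is compared across them.

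miR-516a-5p, the placental member, had its lowest mean without irradiation. Its levels at 0 Gy were -3.61, -3.24, -2.81 and -3.39 in replicates 1 to 4, with a mean of -3.26 ± 0.34 (SD, n = 4). At 2 Gy they were -2.29, -2.54, -2.33 and -2.13, a mean of -2.32 ± 0.17. All 4 of these arrays lay above all 4 unirradiated ones. At 6 Gy the levels were -2.93, -2.58, -3.03 and -2.06 (mean -2.65 ± 0.44), and at 10 Gy they were -2.40, -2.85, -2.48 and -2.64 (mean -2.59 ± 0.20). The widest spread was at 6 Gy, where replicate 4 was the highest of all 16 arrays while replicates 1 and 3 lay below the highest unirradiated array, as did replicate 2 at 10 Gy.

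miR-371a-5p, from the hairpin that opens the embryonic cluster, also had its lowest mean at 0 Gy, with levels of 0.0033, 0.22, 0.68 and -0.13 (mean 0.19 ± 0.35, SD, n = 4). At 2 Gy the levels were 0.91, 0.55, 0.86 and 0.78, with a mean of 0.78 ± 0.16. The groups overlapped, because 0 Gy replicate 3 stood above 2 Gy replicate 2. At 6 Gy the levels were 0.58, 0.42, 0.35 and 0.46 (mean 0.45 ± 0.09), and at 10 Gy 0.78, 0.36, 0.69 and 0.64 (mean 0.62 ± 0.18). Both irradiated groups overlapped with 0 Gy through the same unirradiated array.

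miR-373-5p, from the last hairpin of that cluster, read -2.02, -2.05, -1.92 and -1.72 at 0 Gy, a mean of -1.93 ± 0.15 (SD, n = 4). At 2 Gy it read -1.41, -1.67, -1.31 and -1.34, a mean of -1.43 ± 0.17. At 6 Gy the values were -1.81, -1.61, -1.55 and -1.35 (mean -1.58 ± 0.19), and at 10 Gy -1.52, -1.70, -1.52 and -1.17 (mean -1.48 ± 0.22). The 2 and the 10 Gy arrays stood above every unirradiated array, and 6 Gy replicate 1 fell within the unirradiated range.

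**Figure D1:**
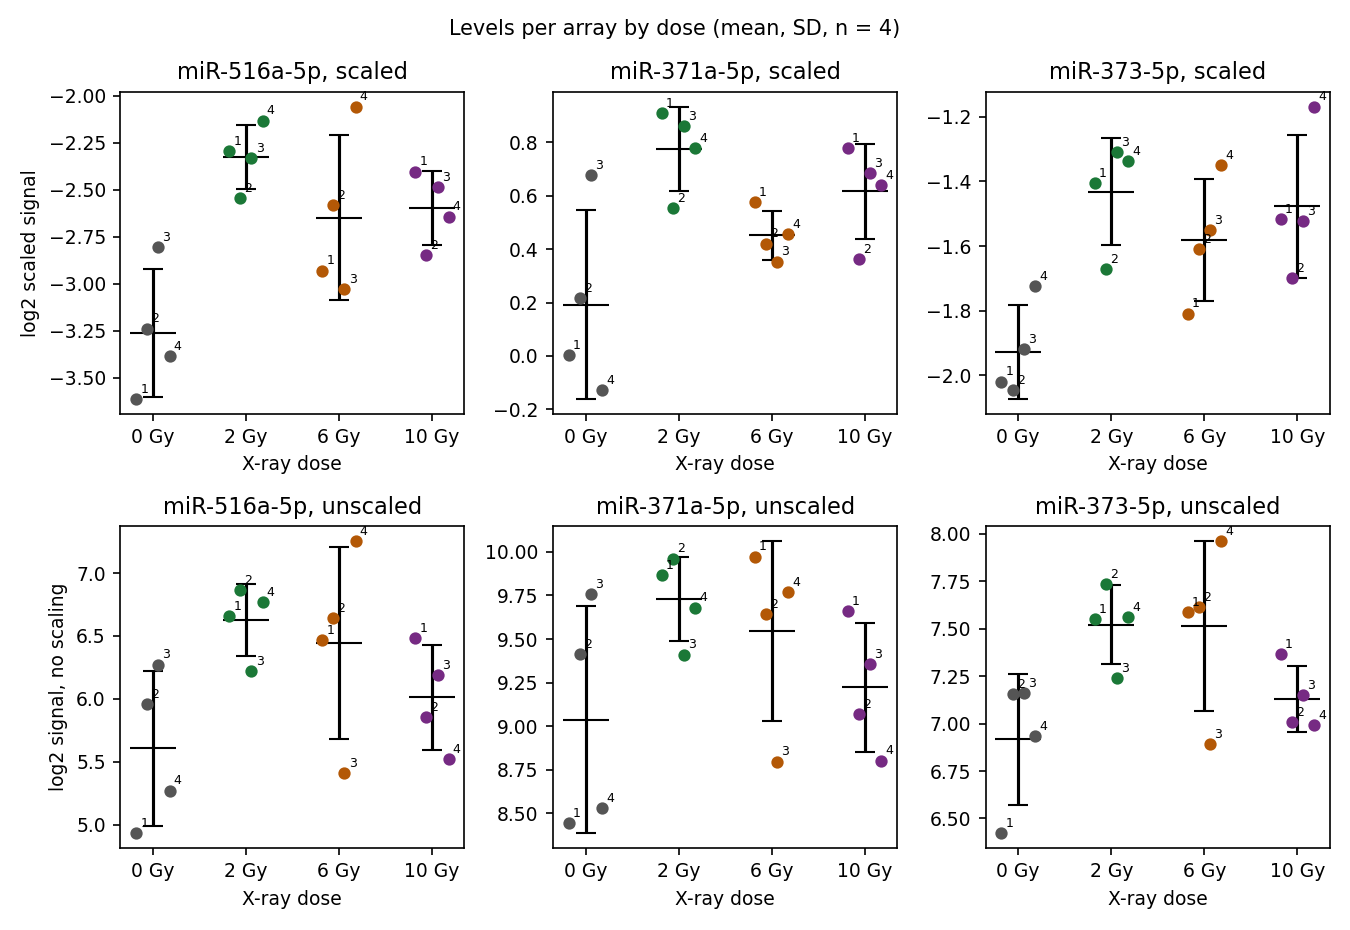
Levels of the 3 miRNAs on each array by X-ray dose, with 75th-percentile scaling (upper row) and without scaling (lower row), in log2 units on axes that do not start at 0. Points are arrays labelled by replicate, and bars give the mean ± SD of 4 arrays. With scaling the mean is lowest at 0 Gy and highest at 2 Gy for each miRNA. Without scaling the arrays of a dose are more widely spread, except for miR-373-5p at 10 Gy.

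In all 3 miRNAs the order of the scaled means was 2, 10, 6 and 0 Gy, from high to low. The steps between neighbours in this order were 0.27, 0.05 and 0.61 for miR-516a-5p, 0.16, 0.16 and 0.26 for miR-371a-5p and 0.05, 0.10 and 0.35 for miR-373-5p. Every pair of neighbours overlapped between arrays. The step from 10 to 6 Gy was smaller than the pooled SD of both doses for miR-516a-5p (0.34) and miR-373-5p (0.21) and slightly above it for miR-371a-5p (0.14). The step from 6 to 0 Gy was above the pooled SD for miR-516a-5p (0.39) and miR-373-5p (0.17), and about equal to it for miR-371a-5p (0.26).

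The difference between 2 and 0 Gy chose these miRNAs and is given as a description, without a test. On the log2 scale it was 0.94 ± 0.21 (SE) for miR-516a-5p, 0.58 ± 0.15 for miR-371a-5p and 0.50 ± 0.13 for miR-373-5p, which is 1.91-fold for the first and 1.41-fold for the last. All 4 arrays at 2 Gy were above the unirradiated mean for each, as for 26.9% of all tested miRNAs. Over all 283 tested miRNAs 12.7% were called in this contrast, 6.01% were called higher, 7.07% separated upwards from 0 Gy with no overlap of arrays, and the median difference was 0.03. The number of miRNAs called in this contrast fell from 36 to 0 without 2 Gy replicate 1 or replicate 4, and reached 121 without 0 Gy replicate 3. The choice itself used limma's adjusted p with a threshold of 0.05. Among the tested miRNAs of the 2 clusters the values nearest to it, which are no test here, were 0.0283 inside (miR-371a-5p and miR-373-5p) and 0.0520 outside (miR-520b).

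At 6 Gy the levels were compared with the same unirradiated arrays that had entered the choice, so these differences are not independent of it. miR-516a-5p differed by 0.61 ± 0.21 (SE; adjusted p = 0.0514, limma with Benjamini-Hochberg adjustment over 283 miRNAs), miR-373-5p by 0.35 ± 0.13 (adjusted p = 0.0636) and miR-371a-5p by 0.26 ± 0.15 (adjusted p = 0.193). None of the 3 passed the threshold, whereas 19.4% of all tested miRNAs did, and 6.01% of all were called higher. In none of the 3 did the groups separate, as they did upwards for 5.65% of all miRNAs. All 4 arrays at 6 Gy were above the unirradiated mean for each of the 3, as for 33.6% of all tested miRNAs. The median over all miRNAs was 0.12. Without 0 Gy replicate 3, 1 of 2 arrays on which no labelling spike-in was detected, miR-516a-5p (0.76, adjusted p = 0.00878) and miR-371a-5p (0.42, adjusted p = 0.0112) passed in the limma fit, where 143 of 283 miRNAs were called, 68 of them higher. miR-516a-5p also passed without 2 Gy replicate 2 (adjusted p = 0.0476), as 1 of 73 called. With normexp its difference was 0.20, with its brighter probe alone 0.27, and miR-373-5p was at 0.19 with normexp. The difference of miR-371a-5p moved by over 1.5 times in both directions, being 0.15 without 0 Gy replicate 4.

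At 10 Gy, again against the shared unirradiated arrays, miR-516a-5p differed by 0.67 ± 0.21 (SE; limma, adjusted p = 0.0822), the greatest positive difference of the 283 miRNAs. That rank rests on the mean of its probes, the dimmer giving 0.93 and the brighter, detected on all arrays, 0.41. miR-373-5p differed by 0.45 ± 0.13 (adjusted p = 0.0741) and miR-371a-5p by 0.42 ± 0.15 (adjusted p = 0.128). None passed, and 0.353% of all tested miRNAs did. For miR-373-5p all 4 arrays lay above all 4 at 0 Gy, as was the case for 9.89% of the miRNAs. In the limma fit without 0 Gy replicate 3, miR-516a-5p (0.82, adjusted p = 0.0210) and miR-371a-5p (0.59, adjusted p = 0.00995) passed, among 43 of 283 called (27 higher). miR-516a-5p also passed without 6 Gy replicate 4 (adjusted p = 0.0497), among 9 called, where only the shared estimate of the spread and the adjustment change. With normexp its difference was 0.36.

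The difference between 10 and 6 Gy contains no level of the 0 or 2 Gy arrays, whose difference made the choice, and both doses lay on the same slide. The 4 doses share 1 estimate of the spread, so the choice and the errors given here are not fully separate. The differences were 0.16 ± 0.15 (SE) for miR-371a-5p, with a 95% confidence interval of -0.16 to 0.49, 0.10 ± 0.13 for miR-373-5p (-0.18 to 0.38) and 0.05 ± 0.21 for miR-516a-5p (-0.39 to 0.50). Adjusted p-values from limma were 0.473, 0.601 and 0.877. None of the 283 miRNAs (0%) was called by limma in this comparison, 42 had an unadjusted p under 0.05, and 8.13% separated upwards with no overlap of arrays, which none of the 3 did. The direction depended on the scaling. Without scaling the differences were -0.32 for miR-371a-5p, -0.38 for miR-373-5p and -0.43 for miR-516a-5p, where the median of all miRNAs was -0.45. Relative to that median they were 0.13, 0.06 and 0.02.

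**Figure D2:**
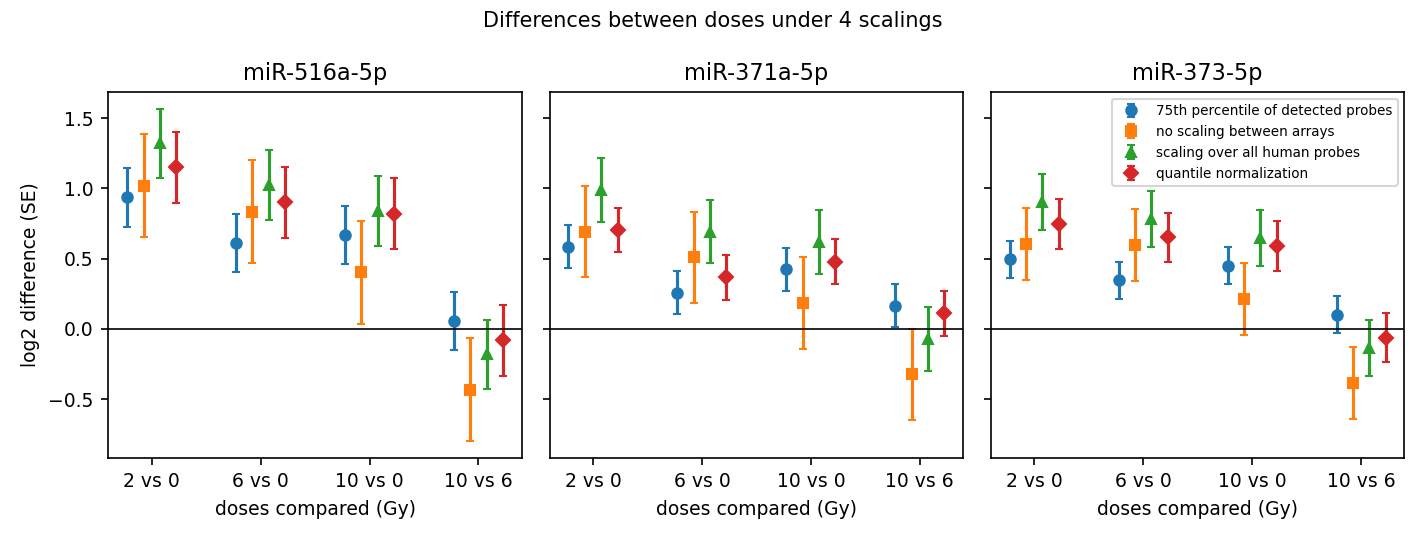
Log2 differences between doses for the 3 miRNAs, with SE bars, under 4 ways of scaling the arrays (circles: 75th percentile of detected probes, squares: none, triangles: 75th percentile of all human probes, diamonds: quantile normalization). The differences from 0 Gy are above 0 with each scaling, and those of 10 against 6 Gy fall on both sides of 0.

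Against 0 Gy the sign, which the choice of these miRNAs favoured, did not depend on the scaling, but the size did. Without scaling, miR-516a-5p was 1.02 higher at 2 Gy, 0.84 at 6 Gy and 0.40 at 10 Gy, with unscaled levels of 5.61 ± 0.61 at 0 Gy and 6.63 ± 0.29, 6.44 ± 0.77 and 6.01 ± 0.42 at 2, 6 and 10 Gy (SD, n = 4 each). The median of all tested miRNAs moved too, to 0.13, 0.37 and -0.23 without scaling and to 0.40, 0.52 and 0.17 with the percentile taken over all human probes. Measured against these medians, the 2 Gy difference stayed between 0.89 and 0.94 for miR-516a-5p, 0.50 and 0.59 for miR-371a-5p and 0.47 and 0.54 for miR-373-5p over the 4 scalings. At 6 Gy the corresponding ranges were 0.47 to 0.69, 0.14 to 0.17 and 0.23 to 0.43. At 10 Gy they were 0.64 to 0.73, 0.39 to 0.45 and 0.45 to 0.50. Scaling narrowed the spread within doses from 0.55 to 0.31 for miR-516a-5p, from 0.47 to 0.22 for miR-371a-5p and from 0.31 to 0.18 for miR-373-5p (pooled SD over the 16 arrays).

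The probes of a miRNA did not always give the same difference. For miR-516a-5p the dimmer probe was 1.14 higher at 2 Gy, 0.95 at 6 Gy and 0.93 at 10 Gy than at 0 Gy, and the brighter one 0.74, 0.27 and 0.41. On 0 Gy replicate 1, where the dimmer probe was not detected, 0.474 of its spots were above background. The 4 probes of miR-371a-5p were closer together, at 0.46 to 0.70 at 2 Gy, 0.13 to 0.34 at 6 Gy and 0.27 to 0.57 at 10 Gy. Spots of 1 probe on 1 array varied by a median of 5.14% (coefficient of variation) for miR-373-5p, 8.68 and 11.8% for miR-516a-5p and 10.2 to 13.6% for miR-371a-5p.

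The rest of the clusters was mostly below detection. Of the 5 miRNAs of the miR-371, miR-372 and miR-373 cluster on the array, miR-371a-3p, miR-372-3p and miR-373-3p were detected on 0 of 16 arrays. The cluster of miR-302 and miR-367 is also typical of embryonic stem cells, and 12 of its 12 miRNAs were detected on no array. Of 46 C19MC miRNAs, 38 were detected on no array, 3 on some and 5 on all. miR-516a-3p, from the same hairpins as miR-516a-5p, was detected on 2, 3, 3 and 1 of 4 arrays at 0, 2, 6 and 10 Gy, and its relative miR-516b-5p on 1 array, at 6 Gy. Both stayed below the limit for testing, which was detection on all 4 arrays of 1 dose by at least 1 probe.

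Besides miR-516a-5p, 5 C19MC miRNAs were tested. miR-520b and miR-520e have nearly the same mature sequence, so the array may not separate them, and both belong to the group with the miR-302-like seed. miR-520b was 0.30 ± 0.10 (SE) higher at 2 Gy, 0.26 ± 0.10 at 6 Gy and 0.29 ± 0.10 at 10 Gy than at 0 Gy, from a level of 0.79, with limma's adjusted p of 0.0520, 0.0570 and 0.0889. miR-520e differed by 0.23, 0.16 and 0.21, with adjusted p-values of 0.0773, 0.142 and 0.161 in the same limma fit. Neither passed at 6 or 10 Gy, and a pass at 2 Gy would have put them among the chosen miRNAs.

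miR-526b-5p had the largest difference of these 5 at 2 and 6 Gy, though not at 10 Gy, with 0.68 ± 0.23 (SE) at 2 Gy, 0.41 ± 0.23 at 6 Gy and 0.21 ± 0.23 at 10 Gy, and adjusted p-values of 0.0602, 0.170 and 0.604 (limma). miR-518e-5p, whose mature sequence is shared by 5p products of other C19MC hairpins, lay at the floor of -4.60 on all 4 arrays at 0 Gy and was detected on 1 of them. It was detected on 4, 3 and 2 arrays at 2, 6 and 10 Gy, and its lowest level at 2 Gy was -4.31. It was tested only because of its detection at 2 Gy, so its difference of 0.46 there is no support for the others. miR-498 showed the smallest difference at 2 Gy, 0.04 ± 0.13 (SE), and 0.15 and 0.16 at 6 and 10 Gy.

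With the scaling used throughout, none of the 5 passed at 6 or 10 Gy against 0 Gy, or at 10 against 6 Gy. At 2 Gy this was fixed by the choice, which took the cluster miRNAs called higher there. With miR-518e-5p left out, since its 0 Gy level at the floor fixed its sign, the other 4 had median differences of 0.26, 0.21 and 0.21 at 2, 6 and 10 Gy against 0 Gy, beside 0.03, 0.12 and -0.02 over all tested miRNAs. For 10 against 6 Gy the median was 0.018, beside 0.003. All 4 were above 0 against 0 Gy, but without scaling miR-498 (-0.08), miR-520e (-0.03) and miR-526b-5p (-0.03) turned negative at 10 Gy. At 10 against 6 Gy the 5 signs were mixed with scaling, and all 5 were negative without it. With the percentile over all human probes miR-520b (0.70), miR-520e (0.63) and miR-526b-5p (1.08) passed at 2 Gy. The value of miR-518e-5p (0.58) is no test there, since it was tested only because of its detection at 2 Gy. The median at 2 Gy was 0.40, and 125 of 283 miRNAs were called. At 6 Gy miR-498, miR-520b, miR-520e and miR-526b-5p passed, beside 0.52 and 183 called. With quantile normalization miR-520b, miR-520e and miR-526b-5p passed at 2 Gy (71 called), and miR-498, miR-520b and miR-520e at 6 Gy (127 called).

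**Figure D3:**
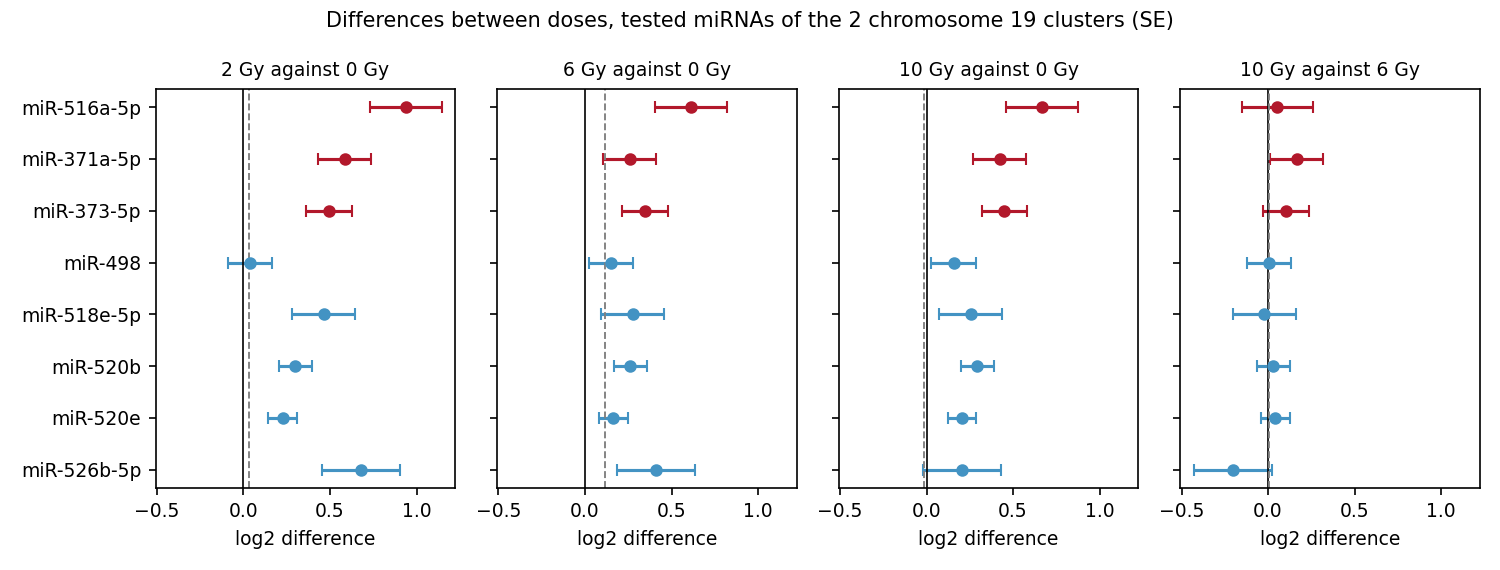
Log2 differences with SE for the 3 miRNAs (red) and the 5 other tested C19MC miRNAs (blue) in each comparison of doses. The dashed line is the median of all 283 tested miRNAs. The differences of the 3 from 0 Gy run from 0.26 to 0.94, those of the other 5 from 0.04 to 0.68, and the differences of 10 against 6 Gy lie around 0.

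The correlation of the 3 miRNAs across the 16 arrays is given as a description, without a test, because they share the arrays and the scaling and were chosen for a common difference between 8 of those arrays. Pearson's r was 0.82 and Spearman's rho 0.79 for miR-516a-5p with miR-371a-5p, 0.77 and 0.78 for miR-516a-5p with miR-373-5p, and 0.60 and 0.65 for miR-371a-5p with miR-373-5p. After each dose mean was subtracted, r was 0.61, 0.44 and 0.10. With the 2 most extreme arrays on the first miRNA left out, r was 0.66, 0.74 and 0.54. Within the slide of the 0 and 2 Gy arrays, whose difference made the choice, r was 0.94, 0.85 and 0.71. Within the slide of the 6 and 10 Gy arrays it was 0.35, 0.52 and 0.27. There alone a permutation test is given, over orders that ignored dose (exact permutation p = 0.393, 0.188 and 0.52), and none passed the threshold.

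The labelling spike-in, a control RNA added when samples are labelled, differed widely between arrays. Its mean log2 value was 6.35 ± 5.83 without irradiation and 4.82 ± 2.68, 2.70 ± 3.86 and 7.38 ± 1.26 at the 3 doses in rising order (SD, n = 4). It was undetected on 0 Gy replicate 3 and on 6 Gy replicate 4, the array with the highest miR-516a-5p level of all. Both arrays entered the means, the correlations and the covariate at -2.32, a set value that stands for no detection. The other 0 Gy arrays read 10.1, 8.30 and 9.31, and the other 6 Gy arrays 1.67, 5.50 and 5.95. With miR-516a-5p it correlated at r = -0.51 (permutation p = 0.0458, adjusted 0.0688 over 6 relations) and rho = -0.56 (p = 0.0261, adjusted 0.0391). With miR-371a-5p r was -0.47 (permutation p = 0.0623, adjusted 0.0748) and rho -0.52 (p = 0.0398, adjusted 0.0478). For miR-373-5p r was -0.20 (permutation p = 0.453, adjusted 0.453) and rho -0.37 (p = 0.16). The 6 relations of this adjustment include the 3 between the miRNAs, which carry no test over the 16 arrays and had the smallest p-values. The adjusted values can therefore be too low, and none is read as passing the threshold. The permutations over all 16 arrays also ignored dose and slide, and those within a slide ignored dose. Subtracting each dose mean gave r of -0.74, -0.78 and -0.26 for miR-516a-5p, miR-371a-5p and miR-373-5p. Within the slide of 0 and 2 Gy r was -0.54, -0.70 and -0.22 (exact permutation p = 0.172, 0.0509 and 0.597), and within that of 6 and 10 Gy -0.45, 0.11 and -0.14 (exact permutation p = 0.264, 0.787 and 0.739). Once the 2 arrays with the most extreme spike-in were left out, r was -0.55, -0.66 and -0.41 (permutation p = 0.0444, 0.0105 and 0.146). The part of labelling in the dose differences was not tested beyond a covariate. With it, the 2 Gy differences were 0.85, 0.52 and 0.48. In that limma fit the 6 Gy differences were 0.39, 0.10 and 0.30 (adjusted p = 0.109, 0.553 and 0.139), and the 10 Gy differences were 0.73, 0.47 and 0.46, which passed (adjusted p = 0.0107, 0.0114 and 0.0293), among 59 of 283 called (34 higher).

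**Figure D4:**
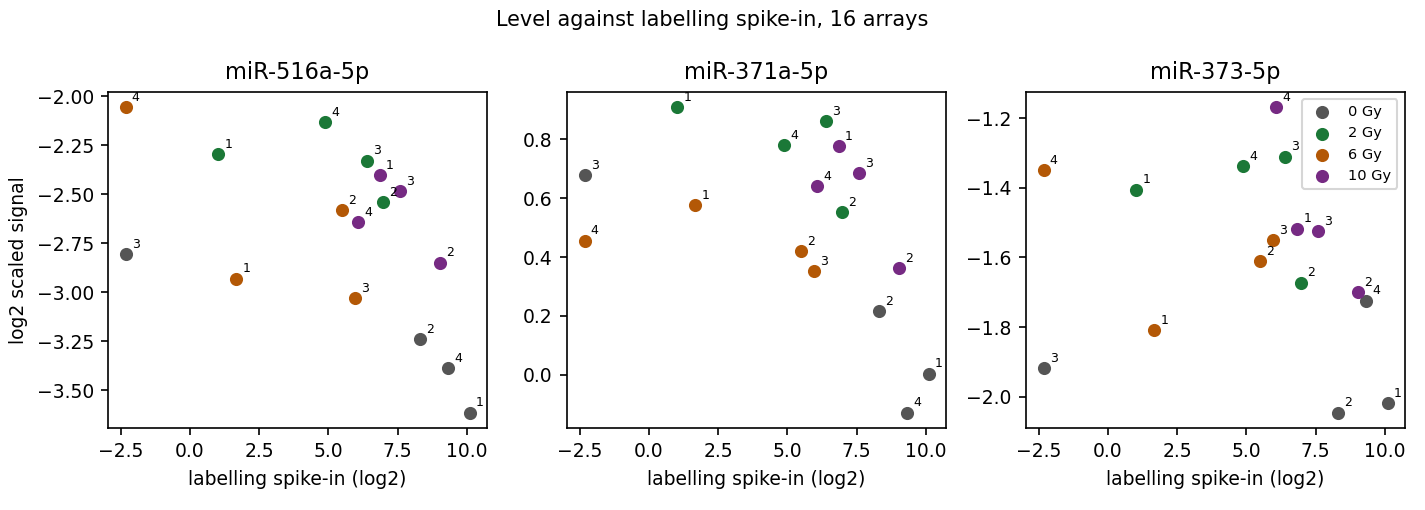
Scaled level of the 3 miRNAs against the labelling spike-in on each of the 16 arrays, both in log2 units, coloured by dose and labelled by replicate. The arrays of a dose differ widely in spike-in, and unirradiated replicate 3, with no spike-in detected, has the highest level of miR-516a-5p and miR-371a-5p at that dose.

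Among the 280 other tested miRNAs, those with the most similar pattern over the 16 arrays were miR-765 (Pearson's r = 0.96), miR-30c-2-3p (0.95) and miR-483-5p (0.93) for miR-516a-5p. For miR-371a-5p they were miR-149-3p (0.87), miR-370-3p (0.87) and miR-3656 (0.80), and for miR-373-5p miR-1226-5p (0.89), miR-422a (0.87) and again miR-765 (0.86). None of these is a miRNA of either cluster. These values describe the arrays, share their scaling and carry no test.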

How the data were processed

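The deposited files hold, per the file headers, single-colour Agilent output of Feature Extraction 11.5.1.1. The processed signal is, per the file headers, a background-subtracted intensity that had not been scaled across arrays. Control and outlier-flagged spots (3.33 to 4.94% of the others) were left out and the spots of a probe averaged. Each array was divided by its 75th percentile over the probes detected on all of them, floored at 0.0412 (log2 of -4.60) and log-transformed. A miRNA was tested if a probe was detected on all 4 arrays of a dose, and its value was the mean of such probes (592 probes, 283 miRNAs). Doses were compared with limma 3.58.1 in R 4.3.3 (lmFit and eBayes, 1 mean per dose, all 16 arrays), with Benjamini-Hochberg adjustment over the 283 and a threshold of 0.05. Correlations carried 100000 resamples, or all 40320 orders within a slide. The fit was tested on simulated data. Figures used Python 3.11.15 and matplotlib 3.10.9.

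The members, lists and alternatives were chosen with earlier results of these data known. Named are the 3 members, all tested miRNAs of the lists for C19MC, for the cluster of miR-371, miR-372 and miR-373 and for miR-302 and miR-367, the untested miRNAs from hairpins of the members' families, and the 3 closest correlates of each member. The number of arrays limits the precision. No mature sequences are printed.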

Additional observations from a re-analysis of the deposited data

How the results depend on the processing

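Against 0 Gy every difference of the 3 miRNAs kept its sign under all alternatives run. The choice at 2 Gy favoured that sign, and the 6 and 10 Gy differences share its 0 Gy arrays. Unscaled values turned 10 against 6 Gy to -0.32 for miR-371a-5p, -0.38 for miR-373-5p and -0.43 for miR-516a-5p, and the percentile over all human probes to -0.072, -0.13 and -0.18. Quantile normalization turned it to -0.062 for miR-373-5p and -0.082 for miR-516a-5p, and Agilent's total signal to -0.10 and -0.054. The percentile over all human probes gave 0.99, 0.90 and 1.32 (miR-371a-5p, miR-373-5p, miR-516a-5p) at 2 Gy, and 0.69, 0.78 and 1.02 at 6 Gy, all past the threshold at 6 Gy. At 6 Gy this scaling called 183 of 283 miRNAs, and the median over all was 0.52. Quantile normalization gave miR-373-5p 0.75 at 2 Gy, and passing values of 0.65 at 6 Gy and 0.59 at 10 Gy, and miR-516a-5p 0.90 at 6 Gy. It called 127 of 283 miRNAs at 6 Gy and 27 at 10 Gy. Agilent's total signal gave miR-373-5p 0.57 at 6 Gy, which passed, among 86 of 331 miRNAs called. Background correction by normexp gave miR-516a-5p 0.39, 0.20 and 0.36 at 2, 6 and 10 Gy, and miR-373-5p 0.30 at 2 Gy and 0.19 at 6 Gy. Unscaled values at 10 Gy were 0.19 for miR-371a-5p, 0.21 for miR-373-5p and 0.40 for miR-516a-5p, and those at 6 Gy 0.51 for miR-371a-5p and 0.60 for miR-373-5p. With the probe detected on all arrays alone miR-516a-5p was 0.27 at 6 Gy and 0.41 at 10 Gy. With no detection filter miR-373-5p fell to 0.25 at 2 Gy, since its undetected probe entered at the floor, and miR-516a-5p passed at 6 Gy (0.61). With the spike-in covariate all 3 passed at 10 Gy (0.47, 0.46 and 0.73), among 59 of 283 called.

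The replicate numbers were not treated as pairs: the mean r over 24 same-numbered pairs was 0.15, with 14 over 0.1, and over 72 other pairs -0.08, with 32 over 0.1. With a replicate block the SE of miR-373-5p was 0.09 in place of 0.13, and it passed at 6 Gy (0.35, limma adjusted p = 0.0245) and 10 Gy (0.45, adjusted p = 0.0360). That fit called 75 of 283 miRNAs at 6 Gy and 7 at 10 Gy. With the slide row as a block the same values of miR-373-5p passed, as did miR-516a-5p at 6 Gy (0.61). This block gave 80 of 283 called at 6 Gy and 11 at 10 Gy. Without both 0 Gy replicate 3 and 2 Gy replicate 2 all 3 passed at 6 Gy (0.42, 0.35 and 0.76 for miR-371a-5p, miR-373-5p and miR-516a-5p) and 10 Gy (0.59, 0.45 and 0.82), and miR-371a-5p was 0.82 at 2 Gy. Without these 2 arrays 166 of 283 miRNAs were called at 6 Gy and 70 at 10 Gy. The causes were not tested.

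Leaving out 1 array at a time gave miR-371a-5p 0.48 to 0.75 at 2 Gy, 0.15 to 0.42 at 6 Gy, 0.32 to 0.59 at 10 Gy and 0.11 to 0.25 for 10 against 6 Gy. miR-373-5p ranged over 0.45 to 0.58, 0.27 to 0.42, 0.35 to 0.52 and -7.38e-05 to 0.18 in the same order, and miR-516a-5p over 0.82 to 1.09, 0.41 to 0.76, 0.55 to 0.82 and -0.072 to 0.25.

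Calls among the 283 miRNAs numbered 36, 55, 1 and 0 (2, 6 and 10 Gy against 0 Gy, and 10 against 6 Gy). They numbered 0 in all 4 without scaling (36, 62, 22 and 78 at an unadjusted p under 0.05). They were 125, 183, 0 and 0 with all human probes (18 of them lower at 2 Gy, 28 at 6 Gy), and 71, 127, 27 and 0 with quantile normalization (16, 35 and 2 of them lower). normexp gave 0, 37, 0 and 0, the replicate block 68, 75, 7 and 0, and the spike-in covariate 74, 29, 59 and 1. Without both arrays named above they were 152, 166, 70 and 0, and with the slide row as a block 54, 80, 11 and 0. With no detection filter they were 56, 90, 8 and 1, out of more miRNAs than the 283. Probes detected on all arrays gave 26, 35, 7 and 0 (of 217), and Agilent's total signal 86 at 6 Gy (of 331). The brightest probe gave 9 at 10 Gy and kept outlier spots 3 at 10 Gy. Each slide rebuilt alone gave 2 at 2 Gy (of 281) and 0 at 10 against 6 Gy (of 255). The limma fit of only the doses compared called 0 in all 4 (69, 75, 48 and 69 at an unadjusted p under 0.05), and 1 array left out gave 0 to 121, 0 to 143 and 0 to 43 against 0 Gy.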
